A study of Mus musculus and Homo sapiens with 12 samples.

Results

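The genes described here carry names given to genes for proteins of the mitochondrial ribosome (mitoribosome). They were chosen by name, as every symbol of the MRPL and MRPS series in either deposited gene table together with DAP3, which gave 78 genes. Raw counts were found for all 78 among the 55487 mouse genes counted and for 76 among the 78932 human genes, since MRPS24 and MRPS36 were not matched in human. Of these genes 50 encode proteins of the large subunit and 27 of the small one. MRPS36 was placed in neither and is a member by its name alone. MRPS30 and MRPS18A carry small-subunit names but sit in the large subunit.

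The study measured polyA RNA after loss of DDX21, a nucleolar RNA helicase of the DEAD-box family, in 2 experiments of 3 libraries a group. In mouse, Lin- Kit+ (LK) blood progenitors were sorted from fetal livers at E13.5 of gestation, from wild-type (WT) embryos of genotype Ddx21f/f and from conditional knockout (cKO) embryos of genotype Vav-Cre; Ddx21f/f. Both mouse groups carry the floxed alleles and only the cKO group carries Cre, which the Vav1 promoter drives in blood cells. In human, H1 embryonic stem cells, 1 established line, were differentiated towards blood stem cells, given mCherry lentivirus whose short hairpin RNA either was a control (shNC) or targeted DDX21 (shDDX21), and 2 days on were sorted as CD34+ CD45+ CD43+ cells positive for the vector. The labels do not say whether replicates came from separate embryos or cultures, so p-values measure the spread between these libraries, which may be technical.

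Mitoribosomes translate the few messages of the mitochondrial genome, all of which encode subunits of the respiratory chain and of ATP synthase. Their ribosomal RNAs come from mitochondrial DNA, but every protein of the particle is encoded in the nucleus, made in the cytosol and imported. Many of the proteins descend from bacterial ribosomal proteins, and the others are found in mitochondria alone. Fetal liver is the main site of blood formation in mid-gestation, and its progenitors divide fast.

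Total counts ran from 21116079 to 23898130 in the mouse libraries and from 15289510 to 19798608 in the human ones. The targeted transcript was low in every perturbed library. Ddx21 stood at 1410, 1431 and 1432 CPM (counts-per-million) in WT and at 276, 282.9 and 281.5 in cKO, 19.7% of the control mean, and DDX21 at 476.9, 465.3 and 468.1 in shNC and 68.58, 69.24 and 67.03 in shDDX21, 14.5% of the control mean. Of 6 mouse progenitor markers Cd34 (0.69 on the log2 scale) and Ptprc (0.51) were higher and Kit (-0.19) lower in cKO, with Kit at 362 CPM in WT and 317 in cKO, while Ly6g and Cd3e, which mark cells the sort removed, had at most 1 count in a library. All 5 hepatocyte markers tested of 8 listed were higher in cKO, with the list summing to 10.6 to 12.1 CPM in WT and 40.6 to 44.7 in cKO. Of the other mouse marker lists, 2 of 3 endothelial genes were higher (summed 36.2 to 37.7 CPM in WT and 47.6 to 50.6 in cKO), 1 of 2 macrophage genes tested was lower (summed 2.32 to 3.16 and 0.892 to 1.91 CPM), and 2 of 3 tested markers of the gated-out lineages were lower. Of 6 human progenitor markers SPN (0.35), CD34 (0.26) and KIT (0.13) were higher and GATA2 (-1.12), MYB (-0.61) and PTPRC (-0.45) lower in shDDX21. Also present were the endothelial gene KDR, at 1007 ± 13.1 CPM in shNC and 813.8 ± 11.2 in shDDX21 (SD, n = 3), and the stem-cell gene LIN28A, at 157 ± 4.47 and 209 ± 3.01. Human endothelial genes (2 of 3 lower, summed 1346 to 1383 and 1158 to 1173 CPM) and macrophage genes (1 of 2 lower, summed 6.92 to 7.94 and 5.01 to 7.23 CPM) moved too; POU5F1, NANOG and SOX2 were not matched. The part that these cells play in the results below was not tested. In bulk samples, fewer cells of a type and less RNA per cell cannot be told apart.

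Some mouse promoters of the members held short sequence motifs, each motif in a minority of them. The printed runs of 4 promoters are shown, each run holding 1 match to the motifs searched for. Mrpl44 and Mrpl12 belong to genes that were lower in both experiments. Mrps12 had 1 of the largest decreases in mouse. Mrps11 overlaps another member, Mrpl46, which lies on the opposite strand, and the run printed for Mrps11 lies inside Mrpl46. Each run covers 150 bases before to 30 bases after the RefSeq start (assembly GRCm38.p6), 5′ to 3′ on the gene's strand, with the motif in capitals. The windows lie at chr1:79775868-79776047 (plus strand) for Mrpl44, chr11:120484487-120484666 (plus) for Mrpl12, chr7:28741792-28741971 (minus) for Mrps12 and chr7:78782981-78783160 (plus) for Mrps11.
Mrpl44: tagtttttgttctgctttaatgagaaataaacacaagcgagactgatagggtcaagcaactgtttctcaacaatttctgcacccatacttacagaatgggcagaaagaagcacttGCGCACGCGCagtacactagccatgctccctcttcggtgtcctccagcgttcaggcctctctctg
Mrpl12: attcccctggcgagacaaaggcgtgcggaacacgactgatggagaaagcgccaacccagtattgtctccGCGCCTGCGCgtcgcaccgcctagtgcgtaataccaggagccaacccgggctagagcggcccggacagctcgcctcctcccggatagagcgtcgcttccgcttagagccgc
Mrps12: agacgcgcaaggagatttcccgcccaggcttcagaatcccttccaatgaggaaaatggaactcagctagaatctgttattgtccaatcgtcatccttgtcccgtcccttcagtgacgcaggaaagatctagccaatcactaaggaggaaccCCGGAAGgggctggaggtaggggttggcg
Mrps11: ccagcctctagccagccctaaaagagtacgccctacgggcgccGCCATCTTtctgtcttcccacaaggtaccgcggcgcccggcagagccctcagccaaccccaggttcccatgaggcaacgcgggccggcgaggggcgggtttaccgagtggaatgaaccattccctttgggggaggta
The capitals mark the motif of nuclear respiratory factor 1, NRF1 (GCGCA, any base, then GCGC), in Mrpl44 on the printed strand and in Mrpl12 on the opposite strand. They mark the motif of ETS-family factors, among them GABPA (CCGGAAG), in Mrps12, and the motif of YY1 (AAGATGGC) read on the opposite strand in Mrps11.

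These 3 factors are known regulators of nuclear genes for mitochondrial proteins. RefSeq gave 74 promoter windows for 68 of the 78 members, each from 250 bases before to 50 after a start, and both strands were searched. The window searched for Mrps12 also held the YY1 motif, outside the printed run. The NRF1 motif was in 17.6% of the members' windows and in 4.6% of all 32851 windows. All windows cover 27025 genes, more than the 14918 tested in mouse, and tested genes were not compared apart. The ETS motif was in 33.8% of members' windows against 8.86% of all, and the YY1 motif in 16.2% against 2.75%. The TATA motif (TATAAA) went the other way, at 6.76% against 13.6%. A match is a run of letters and not a measured binding site. Members called lower in mouse cKO held the NRF1 motif in 4 of 20 windows and members not called in 9 of 54. The ETS motif was in 4 and 21 of the same windows, the YY1 motif in 3 and 9 and the TATA motif in 3 and 2. Divided by the calls of a second fit with an offset for GC content (described below), the ETS motif was in 13 of 40 windows of members called lower and 12 of 34 of the others.

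Many members also sit head to head with another gene. Of the 78 mouse members, 34 (43.6%) had the 5′ end of a protein-coding gene on the opposite strand within 1000 bases, against 1981 of 12085 other protein-coding genes tested (16.4%). In 21 pairs the starts were less than 200 bases apart. Mrps11 and Mrpl46 are each other's partner, with starts 412 bases apart on chromosome 7 and overlapping 5′ ends. Mrpl36 starts 29 bases from Ndufs6, which encodes a subunit of respiratory complex I. Mrpl18 faces Tcp1, which encodes a chaperonin subunit, and Mrpl49 faces Fau, which encodes a protein of the cytosolic ribosome. Of the 34 members with such a neighbour 11 were lower in cKO, as were 11 of the 44 without one. Among 31 neighbours tested, 11 were lower and 3 higher in cKO, against 15.8% and 20.7% of all genes. The neighbours include the members Mrpl46 and Mrps11, and Mrpl46 is counted as lower both as a member and as a neighbour. In 2 pairs both genes were lower, and in 2 the member was lower and its neighbour higher.

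In the fetal liver cells, mitoribosomal transcripts were moderately lower without DDX21 in the sum over all members, and 22 of the 78 genes were called lower. The 78 genes summed to 4339, 4241 and 4052 CPM in the WT libraries and to 3889, 3670 and 3714 in the cKO libraries. Every cKO library lay below every WT library, and the cKO mean was 89.25% of the WT mean. The large-subunit genes stood at 87.47% of WT, from 2850 ± 119 to 2493 ± 96.8 CPM (SD, n = 3), and the small-subunit genes stood at 93.31%, from 1332 ± 28.6 to 1243 ± 19.9 CPM. Neither pair of groups overlapped. No test is given for the sums, since the members were chosen with earlier results known. In all, members made up 0.403% to 0.417% of counts in WT and 0.379% to 0.391% in cKO.

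**Figure D1:**
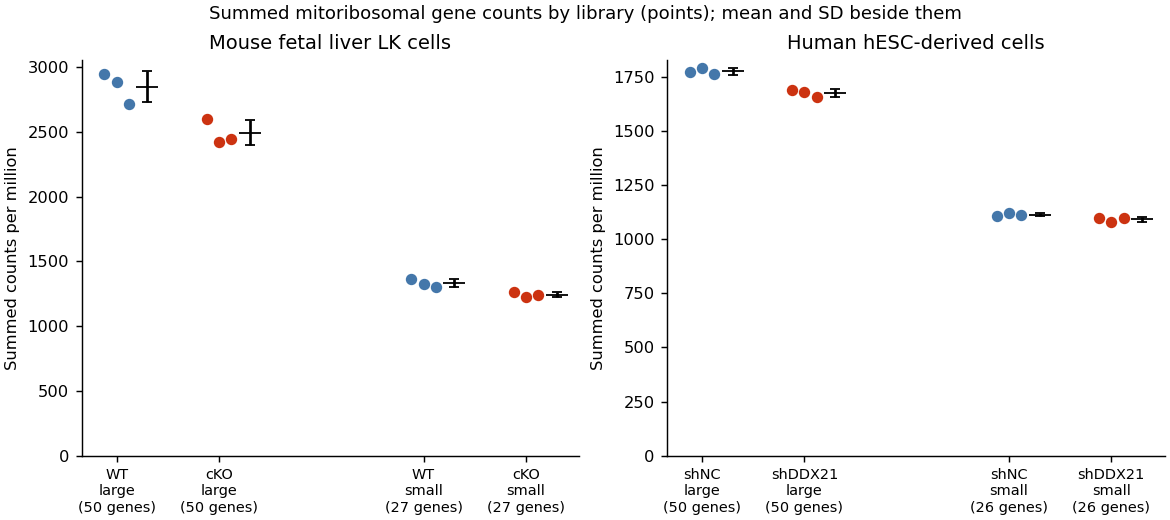
Summed CPM of the large-subunit and small-subunit genes in each library (points), with the group mean and SD (black) beside them, for mouse (left) and human (right); both axes start at 0. In mouse the cKO points lie below the WT points for both subunits, and in human the shDDX21 points lie below the shNC points for both, by less.

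Tested with edgeR (quasi-likelihood F-test, p-values adjusted by Benjamini-Hochberg over all 14918 mouse genes, threshold 0.05), 22 members (28.2%) were called lower in cKO and 0 higher. Over all genes tested, 15.8% were called lower and 20.7% higher. The median log2 fold change of the members was -0.14, against 0.00 for all genes, and 66 of the 78 were below 0. In 29 members every cKO library was below every WT library, and in 3 every cKO library was above. Over all genes these shares were 21.4% lower and 27.6% higher. Of the large-subunit genes 17 of 50 were called lower and of the small-subunit genes 4 of 27, a difference that was not tested. Genes with a bacterial homolog (13 of 46 lower) and those specific to mitochondria (8 of 31) had similar shares, with medians of -0.15 and -0.14.

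**Figure D2:**
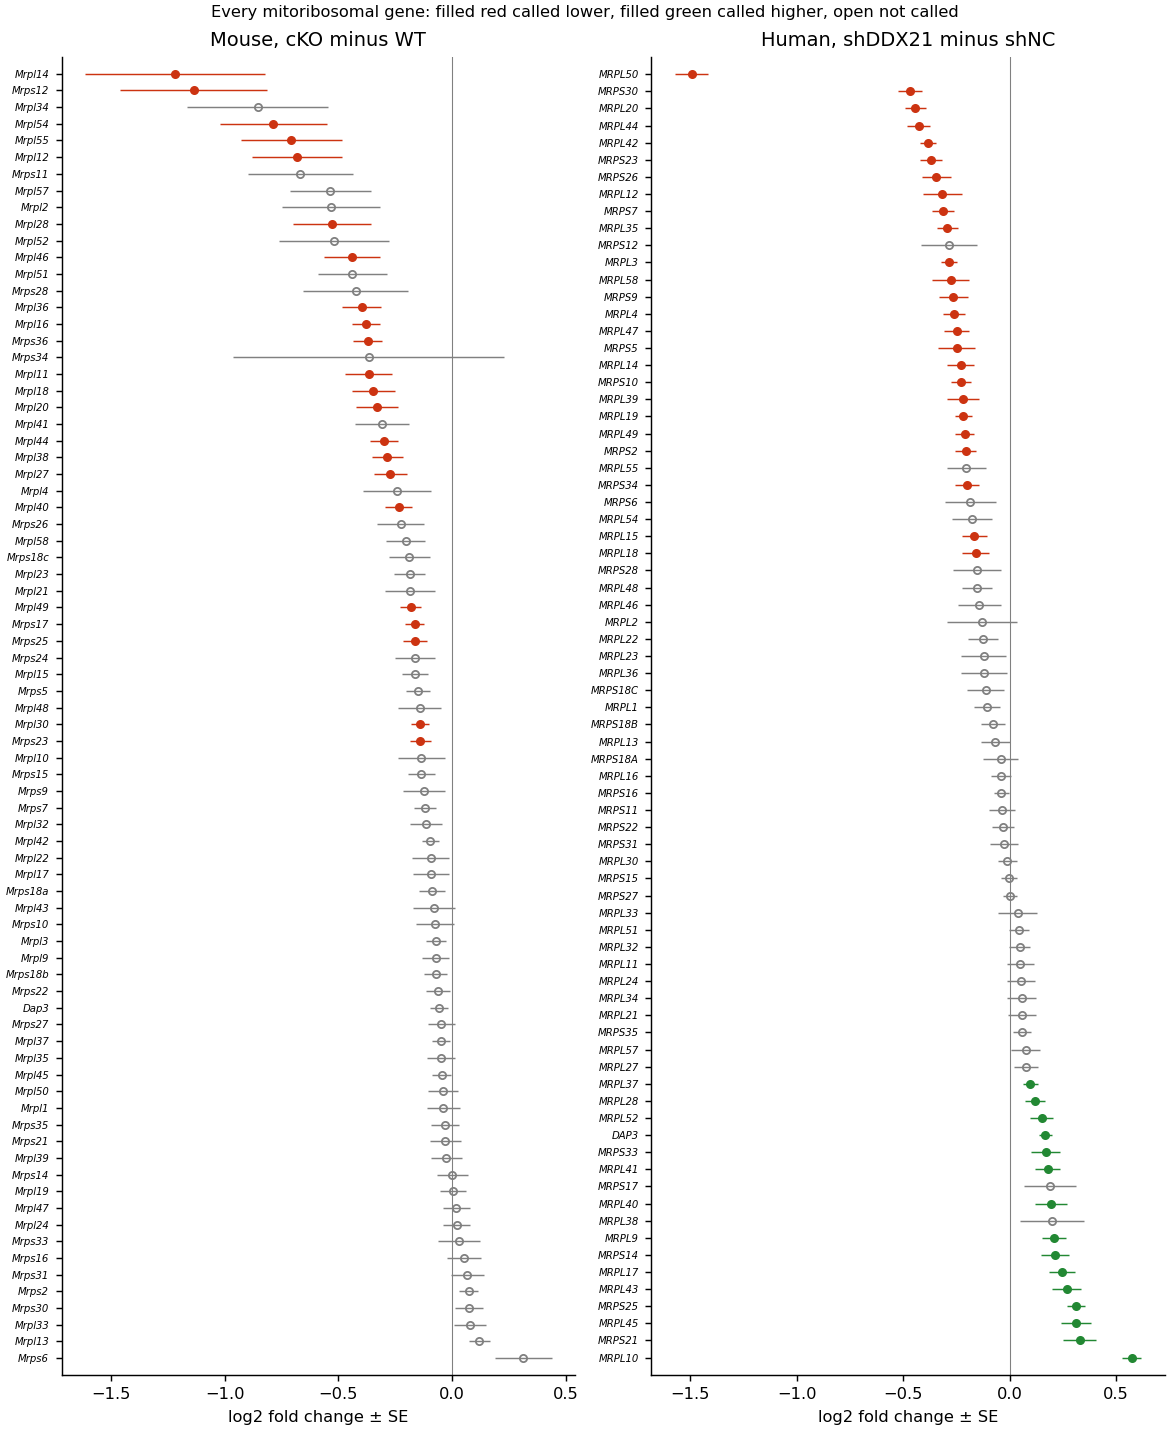
Log2 fold change with its SE for every member in mouse (left, cKO minus WT) and human (right, shDDX21 minus shNC), ordered by size; filled points were called. All 22 filled points in mouse are decreases, while the human panel has 15 increases and 25 decreases.

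The mouse libraries differed in how GC-rich genes were counted, and this touches the largest decreases. Genes of 60% GC or more deviated from their 6-library mean by a median of 0.35, 0.22 and -0.21 on the log2 scale in WT replicates 1 to 3, and by 0.21, -0.40 and -0.14 in cKO replicates 1 to 3. WT replicate 3 thus lay with cKO replicates 2 and 3, and cKO replicate 1 with WT replicates 1 and 2. Of the 14 members of 55% GC or more 6 were called lower, with a median of -0.52, and of the 37 under 50% GC 6 were called lower, with a median of -0.06. Over all genes tested of 55% to 60% GC the median was -0.17. The share of all genes of each GC class called lower was not computed. A second fit gave each library an offset for the GC content of each gene, an alternative chosen after seeing the data. It called 37 members lower (47.4%) and 0 higher, with a median of -0.15. Over all genes that fit called 47.8%, with 24.5% lower and 23.3% higher. Of the 22 members lower in the first fit 21 were also lower in the second, the exception being Mrpl38 (-0.29 without and -0.03 with the offset). Members called lower with the GC offset comprised 27 of 50 large-subunit and 9 of 27 small-subunit genes.

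**Figure D3:**
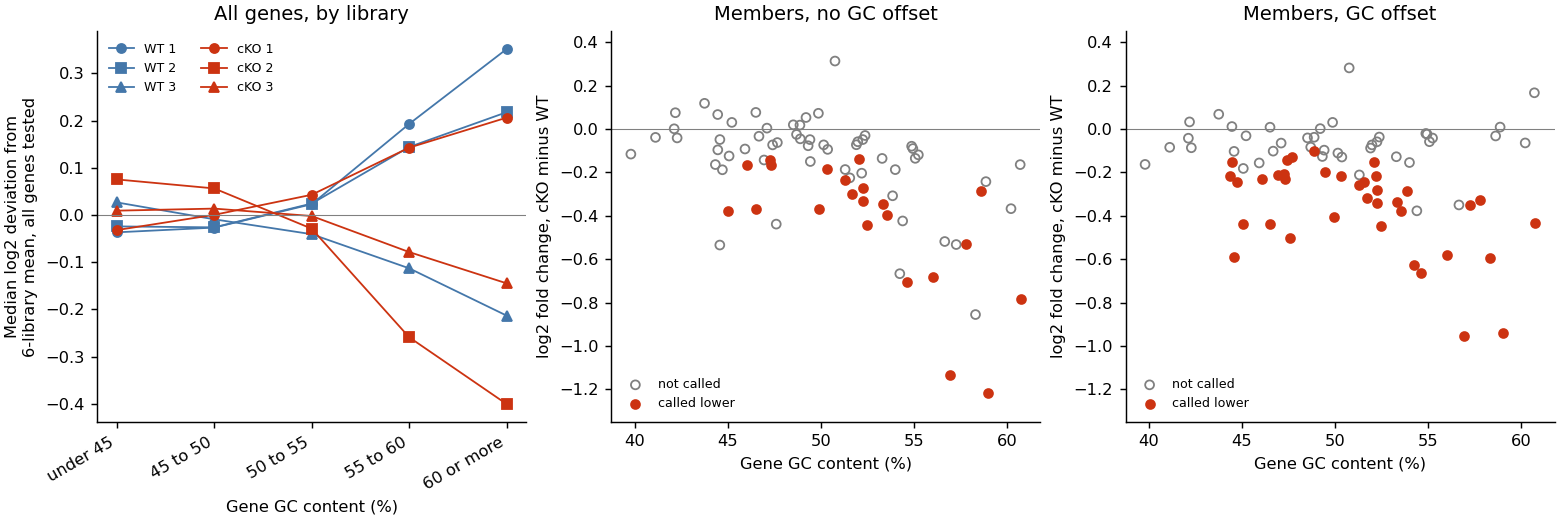
Left, median log2 deviation of all mouse genes tested from their mean over 6 libraries, by bins of gene GC content, 1 line for each library; middle and right, each member's log2 fold change (cKO minus WT) against its GC content without and with the GC offset. The lines of both genotypes part in the GC-rich bins, and with the offset 37 members rather than 22 are called lower.

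The count of calls also rests on single libraries in the fit without the offset. Leaving out WT replicate 1, WT replicate 2, cKO replicate 2 or cKO replicate 3 left 5, 5, 7 and 4 members called lower, and the same 4 were called in all 6 such fits. Over all genes and both directions, 3717 were called without cKO replicate 3, against 5443 of 14918 with every library. The 6 fits ranged up to 5671. Leaving out WT replicate 3 gave 27 lower and 1 higher, the latter Mrps6. With the GC offset 27 to 36 members were called, 1 of them higher without WT replicate 3, and 25 were called lower in all 6. Over all genes those fits called 5945 to 6913. The share of all genes called in all 6 fits was not computed. Shorter genes had the larger decreases: 16 of the 30 members under 2000 bases of exon were called lower, with a median of -0.32, against 2 of the 23 longest, with a median of -0.08. All genes tested between 1000 and 2000 bases had a median of -0.03.

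The largest decreases were in Mrpl14 and Mrps12, the only members called that changed by 2-fold or more. Mrpl14 (chr17:45686322-45698495, mm10), whose product lies at the subunit interface and binds a factor that keeps the subunits apart during assembly, stood at 23.5, 21.1 and 9.37 CPM in WT and at 11.5, 5.51 and 6.21 in cKO. The groups overlapped, since WT replicate 3 was below cKO replicate 1. Mrpl14 changed by -1.22 ± 0.40 on the log2 scale (SE, adjusted p = 0.048), and by -0.94 with the GC offset (adjusted p = 0.0066). Mrps12 (chr7:28739641-28741820), which encodes the protein of the decoding centre, was at 14.0, 12.2 and 6.03 CPM in WT and 6.31, 3.97 and 4.40 in cKO. Here too WT replicate 3 was the low one and fell just under the highest cKO library. Its log2 fold change was -1.14 ± 0.32 (adjusted p = 0.030), and -0.95 with the offset (adjusted p = 0.0048).

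Mrpl12, which encodes the stalk protein that recruits translation factors, had the highest level per kilobase of exon of all mouse members. It stood at 148, 146 and 119 CPM in WT and at 110, 60.9 and 86.7 in cKO, with no overlap between the groups. Its log2 fold change was -0.68 ± 0.20 (adjusted p = 0.032), with cKO replicate 2 far below the other cKO libraries. Mrpl55, at 34.9, 32.0 and 24.3 CPM in WT against 24.3, 13.4 and 18.3 in cKO, and Mrpl54, at 19.2, 17.8 and 10.9 against 11.2, 7.42 and 9.21, were also lowest in cKO replicate 2. The groups overlapped for Mrpl54, where WT replicate 3 was below cKO replicate 1. Their log2 fold changes were -0.71 ± 0.22 (adjusted p = 0.043) and -0.79 ± 0.24 (adjusted p = 0.036), the latter -0.43 with the GC offset (adjusted p = 0.0029). Mrpl28, homolog of a bacterial large-subunit protein, changed by -0.53 ± 0.17 (adjusted p = 0.046), and by -0.33 with the offset (adjusted p = 0.00048), from 57.9, 55.5 and 44.0 to 44.8, 28.8 and 35.6 CPM, its groups overlapping by 1 library.

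Other decreases were smaller and tighter. Mrpl36 (chr13:73328513-73332178), homolog of a small zinc-binding bacterial protein, stood at 45.5, 42.4 and 37.2 CPM in WT and at 33.1, 31.6 and 30.2 in cKO (log2 fold change -0.40 ± 0.09, adjusted p = 0.010). Mrpl44 (chr1:79776018-79781445), an RNase III-like protein found only in mitochondria, went from 53.4, 50.4 and 48.4 CPM to 43.0, 40.5 and 40.0 (-0.30 ± 0.06, adjusted p = 0.0075). In both genes all cKO libraries lay below all WT libraries, and each was called lower in all 6 fits that left out a library. The other 2 genes so called, Mrpl16 (-0.38 ± 0.06) and Mrps36 (-0.37 ± 0.06), are named here after their values were seen. Mrps36 is the member placed in neither subunit. Mrpl46, at 47.5, 41.9 and 35.3 CPM in WT and 34.3, 28.5 and 29.1 in cKO, changed by -0.44 ± 0.12 (adjusted p = 0.028). Its head-to-head partner Mrps11 had a log2 fold change of -0.67 ± 0.23 that missed the threshold (adjusted p = 0.059), and -0.63 with the GC offset (adjusted p = 0.012).

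Among the mouse genes with the highest levels per kilobase of exon, Mrpl18 was at 112, 113 and 98.9 CPM in WT and 96.8, 77.5 and 80.3 in cKO (-0.35 ± 0.09, adjusted p = 0.025). Mrpl49 was at 89.0, 85.3 and 82.3 CPM and then 74.7, 74.8 and 76.6 (-0.18 ± 0.05, adjusted p = 0.018). Mrpl24 and Mrpl9 were not called, at 0.02 and -0.07. At the low end, Mrps10 and Mrpl33 were not called (-0.08 and 0.08), and Mrps34 had a mean of 0.563 CPM in WT, the lowest of all. The exons of Mrps34 share 77.8% of their bases with other genes, mainly Mapk8ip3, and its level is uncertain where the counting drops shared bases; human MRPS34 was at 43.6, 42.0 and 38.3 CPM in shNC. Dap3, which encodes a GTP-binding protein of the small subunit, was not called (-0.06 ± 0.04, adjusted p = 0.28, and 0.01 when scaled to total counts). None of the Mrps18 homologs was called in this fit, with Mrps18a at -0.09, Mrps18b at -0.07 and Mrps18c at -0.19. With the GC offset Mrps18c was called lower (-0.25, adjusted p = 0.017).

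**Figure D4:**
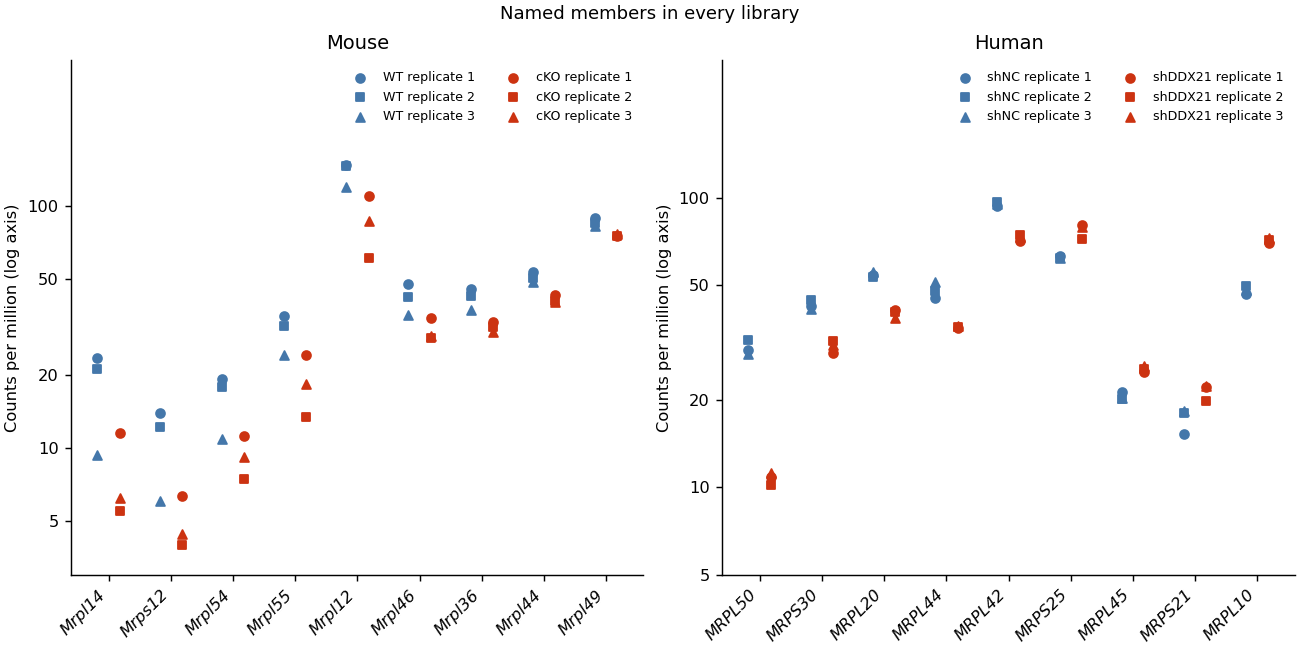
CPM of 9 mouse and 9 human members in every library, on log axes; colour gives the group and marker shape the replicate number. In mouse, WT replicate 3 lies near or below cKO replicate 1 for Mrpl14, Mrps12 and Mrpl54, while Mrpl44 and Mrpl49 are tight; in human, MRPL50 and MRPL10 are far apart between groups.

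In the human cells the members moved both ways. Of the 76 genes, 15 were called higher and 25 lower in shDDX21, together 52.6%. Over all 20188 human genes tested the share was 52.7%, with 25.3% higher and 27.4% lower, so the share of members called was near the background. The median log2 fold change was -0.09, against 0.01 for all genes. The split moved with the scaling, from 10 higher and 28 lower when scaled to total counts to 19 higher and 21 lower with upper-quartile factors. The 76 genes summed to 2882, 2915 and 2879 CPM in shNC and to 2790, 2762 and 2755 in shDDX21. The groups did not overlap, and the shDDX21 mean was 95.75% of that of shNC. Large-subunit genes summed to 94.32% and small-subunit genes to 98.04% of the control mean. Groups did not overlap in 26 members that were lower and 14 that were higher, against 29.5% and 27.9% of all genes.

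A single human gene stood far from the other members. MRPL50 (chr9:101387633-101398618, hg38), a protein of the large subunit found only in mitochondria, was at 29.9, 32.2 and 29.0 CPM in shNC and at 10.8, 10.2 and 11.2 in shDDX21. The shDDX21 libraries all lay far below the lowest control library. On the log2 scale MRPL50 changed by -1.49 ± 0.08 (adjusted p = 2.19e-27), and 184 of the 20188 genes tested had a lower one. No exon of another gene overlaps MRPL50 in the deposited coordinates. In mouse, Mrpl50 was at 84.3, 85.1 and 86.9 CPM in WT and 75.1, 89.2 and 84.8 in cKO, a log2 fold change of -0.04 ± 0.07.

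The next human decreases were all below 2-fold. MRPS30, a large-subunit protein in spite of its name, went from 42.3, 44.3 and 41.2 CPM to 29.2, 32.1 and 31.1 (-0.47 ± 0.06, adjusted p = 4.88e-11). MRPL20, homolog of a bacterial protein that binds ribosomal RNA early in assembly, went from 54.1, 53.5 and 55.4 to 41.0, 40.4 and 38.5 (-0.44 ± 0.05). MRPL44 went from 45.2, 47.9 and 51.3 to 35.5, 35.7 and 36.0 (-0.43 ± 0.05, adjusted p = 1.38e-10). In each of these genes the groups were apart. MRPL42, at 93.8, 97.3 and 95.1 CPM against 71.3, 74.5 and 73.7, changed by -0.38 ± 0.04. MRPS23 (-0.37 ± 0.05), MRPS26 (-0.35 ± 0.07) and MRPL12 (-0.32 ± 0.09) completed the 8 largest decreases. Human MRPL12 shares 69.5% of its exon bases with an overlapping gene on the same strand, which makes its count uncertain.

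The largest human increase was in MRPL10 (chr17:47823272-47831541), whose product anchors the stalk proteins of the large subunit. It stood at 46.5, 49.9 and 48.2 CPM in shNC and at 70.1, 71.7 and 73.0 in shDDX21, well apart (0.57 ± 0.04, adjusted p = 9.91e-19). Its partner in the stalk, MRPL12, was called lower in the same libraries, but the MRPL12 count is uncertain as said above. That call was lost under 1 of 15 alternatives. MRPS21 went from 15.3, 18.1 and 18.3 to 22.2, 19.9 and 22.5 CPM (0.33 ± 0.08). MRPL45, which lies near the exit of the nascent chain and helps hold the ribosome at the inner membrane, went from 21.3, 20.3 and 20.3 to 25.2, 25.6 and 26.3 (0.31 ± 0.07). In both genes the groups did not overlap.

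MRPS25, at 63.3, 62.1 and 62.3 CPM in shNC and 80.8, 72.0 and 79.6 in shDDX21, also rose (0.31 ± 0.04), although 45.9% of its exon bases are shared with other genes. MRPL43 (0.27), MRPL17 (0.24), MRPS14 (0.21) and MRPL9 (0.21) were the other named increases. With the exon-length offset MRPL9 was at 0.12 and not called. DAP3 was higher at 129, 130 and 132 CPM against 116, 117 and 116 (0.17 ± 0.03, adjusted p = 6.61e-06). MRPS18A, MRPS18B and MRPS18C were not called, at -0.04, -0.08 and -0.11. In all 6 fits that left out a library, 20 members remained called lower and 8 higher. The same share over all human genes was not computed.

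Levels per kilobase of exon, taken over all annotated exons of a gene, differed widely between members. In mouse WT they ran from 89.8 CPM per kilobase for Mrpl12 and 77.3 for Mrpl18 through 45.6 for Mrpl49, 44.5 for Mrpl9 and 44.3 for Mrpl24, the last 3 close together, down to 3.98 for Mrpl33, 3.35 for Mrps10 and 0.273 for Mrps34, whose count is uncertain as said above. In human shNC cells MRPL41 was highest at 56.8, followed by MRPL51 (37.9), MRPS34 (37.8), MRPL37 (36.5) and MRPS35 (35.2). The lowest were MRPL38 (1.36), MRPS6 (1.47) and MRPS5 (1.21). These 3 share 41.1%, 42.8% and 23.3% of exon bases with other genes on the same strand, so their counts are uncertain. Control levels were not ranked alike in mouse and human, with a Spearman's rho of 0.09 across 76 members as a description. Annotated exon length differed between the species, at 8079 bases in mouse and 2269 in human for MRPS10, and 3682 and 16368 for MRPL42. The ranks thus depend on annotation as well as on expression. Of the human genes just named, MRPL41 (0.18), MRPL37 (0.10), MRPS34 (-0.20) and MRPS5 (-0.25) were called. MRPL51 (0.04), MRPS35 (0.06), MRPS6 (-0.18) and MRPL38 (0.20) were not. With the exon-length offset MRPL41 (0.03), MRPL37 (0.07) and MRPS5 (-0.18) were not called, and MRPS34 (-0.34) stayed called.

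Across the 76 genes measured in both experiments, fold changes in mouse and human were not ranked alike, with a Spearman's rho of 0.08 as a description. The experiments share no library. Called in both and in the same direction were 7 genes, all lower: MRPL12, MRPL14, MRPL18, MRPL20, MRPL44, MRPL49 and MRPS23, the last outside the 6 that the naming rule takes. Mouse Mrpl20, at 77.4, 71.8 and 69.3 CPM in WT and 66.2, 53.3 and 54.2 in cKO, changed by -0.33 ± 0.09 (adjusted p = 0.028). Human MRPL14 changed by -0.23 ± 0.06, MRPL49 by -0.21 ± 0.04 and MRPL18 by -0.16 ± 0.06. Called in both but in opposite directions were 3: MRPL28, MRPL40 and MRPS25. Mouse Mrpl40 was at 51.8, 50.8 and 49.3 CPM in WT and 45.6, 41.4 and 42.0 in cKO, and Mrps25 at 48.0, 48.8 and 49.8 and then 42.6, 42.8 and 45.4 (-0.16 ± 0.05, adjusted p = 0.044), the groups apart in both. The call of mouse Mrps25 was lost under 13 of 24 alternatives, and 69.8% of its exon bases lie opposite Nr2c2, and reads of the 2 genes cannot be told apart if the counting ignored strand. In human the calls of MRPL18, MRPL28, MRPL37, MRPL40, MRPL41 and MRPS5 were lost under 4 to 9 of 15 alternatives each. A further 11 were called in mouse only, 30 in human only and 25 in neither. With the GC offset in mouse, 13 were called the same way in both and 5 in opposite ways. The share of all matched genes called in both was not computed. These counts thus have no background and are not read as a shared response.

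**Figure D5:**
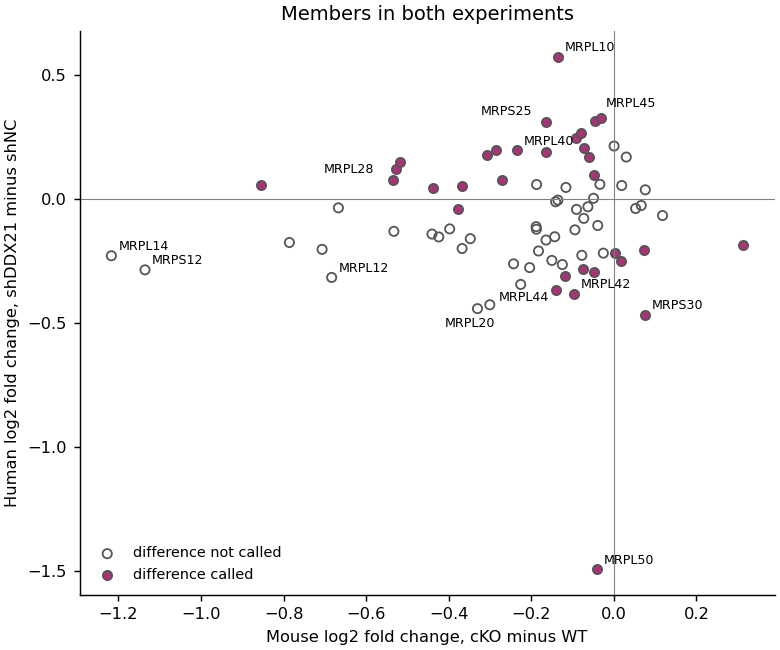
Log2 fold change in human (vertical axis, shDDX21 minus shNC) against mouse (horizontal axis, cKO minus WT) for the 76 members in both experiments; filled points are those whose difference between experiments was called. MRPL50 lies alone at the bottom, near 0 on the mouse axis, and MRPL20 and MRPL44 lie low on both axes.

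The difference between the fold changes was tested as an interaction over all 12 libraries. It was called in 32 of 76 members: in 11 the mouse effect lay above the human one and in 21 below. Over the 10318 genes tested in both, 56.2% were called, 35.8% above and 20.4% below. MRPL50 had the largest difference, 1.45 ± 0.10 (mouse minus human, adjusted p = 2.21e-07). MRPS30 (0.54 ± 0.08) and MRPL42 (0.29 ± 0.05) also had the mouse effect above the human one. MRPS25 (-0.47 ± 0.07), MRPL45 (-0.36 ± 0.06) and MRPL10 (-0.71 ± 0.12) had it below, with mouse log2 fold changes of -0.16, -0.05 and -0.14. Species, source of the cells, kind and time of DDX21 loss all differ between the experiments and cannot be told apart.

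Among the genes that build and serve the mitoribosome, shares called in mouse are read against the 15.8% of all genes that were lower and the 20.7% that were higher. Of 28 assembly factors 6 were lower and 0 higher, with a median of -0.14, and with the GC offset 9 were lower. Among them were Ddx28, a DEAD-box helicase of large-subunit assembly (21.1 ± 1.11 to 16.6 ± 0.10 CPM, SD, n = 3; -0.34 ± 0.07, and -0.24 and not called with the GC offset), the GTPase gene Noa1 (-0.18 ± 0.04) and the pseudouridine synthase gene Trub2 (-0.23 ± 0.05). Of 15 translation factors 4 were lower and 1 higher. The elongation factor gene Tufm (-0.18 ± 0.03, and -0.09 and not called with the GC offset), the ribosome recycling gene Gfm2 (-0.20 ± 0.05) and Guf1 (-0.20 ± 0.05) were lower. Of 12 genes of mitochondrial transcription and RNA processing none was called, at a median of -0.05, and with the GC offset 4 were lower. None of the 5 further genes listed with the mitoribosome under other names was called, and with the offset 2 were lower. Oxa1l is among the 5 and encodes a protein that binds the mitoribosome, not a ribosomal protein.

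In human, 9 of 27 assembly factors were lower and 4 higher, with a median of -0.09. Over all human genes 27.4% were lower and 25.3% higher, so the share of assembly factors called was near the background. DHX30 (-0.27 ± 0.03) and FASTKD2 (-0.32 ± 0.05), RNA-binding factors of mitochondrial RNA and ribosome assembly, were lower, and NOA1, lower in mouse, was higher (0.48 ± 0.05). Of 15 translation factors 6 were lower and 1 higher: GUF1 (-0.39 ± 0.04) and the initiation factor gene MTIF2 (-0.34 ± 0.04) were lower and TUFM was higher (0.23 ± 0.03). Of 13 genes of mitochondrial transcription and RNA processing 7 were lower and 2 higher. TFAM, which packages mitochondrial DNA and starts its transcription, went from 96.6 ± 1.54 to 46.6 ± 2.29 CPM (-1.05 ± 0.04), and ELAC2, which trims transfer RNAs, was lower (-0.31 ± 0.03), while HSD17B10, a subunit of mitochondrial RNase P, was higher (0.76 ± 0.05). Of the 5 further genes listed with the mitoribosome OXA1L, not a ribosomal protein, was higher (0.49 ± 0.03), as was AURKAIP1 (0.11), and PTCD3 was lower (-0.09).

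Among 8 tested regulators of nuclear genes for mitochondria, 4 were lower and 1 higher in mouse, and 7 lower and 1 higher in human. Nrf1, whose motif is printed above, went from 104 ± 6.71 to 77.2 ± 2.99 CPM in mouse (-0.44 ± 0.06, adjusted p = 0.0012), and NRF1 from 25.5 ± 0.91 to 18.8 ± 0.52 in human (-0.45 ± 0.07, adjusted p = 1.53e-07). Pprc1, a coactivator of NRF1, was lower in both (-0.40 ± 0.07 and -0.70 ± 0.04). Gabpa, an ETS factor, changed by -0.21 ± 0.05 in mouse and -0.36 ± 0.05 in human, and Yy1 by -0.12 ± 0.04 and -0.26 ± 0.03. Gabpb1, the partner of Gabpa, was higher in mouse (0.44 ± 0.05) and lower in human (-0.40 ± 0.06). In human, MYC fell from 200 ± 3.25 to 88.6 ± 2.18 CPM (-1.17 ± 0.03), and ESRRA, a nuclear receptor, was higher (0.57 ± 0.04). No link between these levels and those of the members was tested.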

How the data were processed

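The authors deposited, for each experiment, a table of raw counts per gene with exon lengths and a table of normalized values with gene symbols. Per the submitters' processing notes, STAR, featureCounts and DESeq2 were used with builds mm10 and hg38; versions and strand setting are not given in the sources used here. The deposited normalized signal equals each raw count divided by 1 constant per library, within a relative deviation of 4.97e-10, and the authors' log2 fold changes deposited beside it were not used. Of the mouse gene IDs 99.4% were found in GENCODE M21, which gave GC content and positions.

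Counts were fitted per experiment with edgeR 4.0.16 (R 4.3.3; filterByExpr, TMM, quasi-likelihood test) on 3 against 3 libraries, and p-values were adjusted over all genes tested. The SE of a log2 fold change is its size divided by the root of the F statistic. CPM uses TMM-scaled library sizes. The interaction used 12 libraries and genes matched by symbol. Every member passed the filter on low counts, and the lowest member count in a library was 2 in mouse (Mrps34) and 53 in human. The spread between replicates (biological coefficient of variation) was 10.5% in mouse, 6.01% with the GC offset, and 2.23% in human. The fits were tested on simulated data with 100 genes changed 2-fold and 100 changed 1.5-fold. At 2-fold, 90 were recovered at the mouse spread over 14624 genes and 100 at the human spread over 19698. At 1.5-fold, 49 and 93 were recovered. Far fewer genes changed than were called in the data, and those changed were above a count minimum. No GC difference between libraries was simulated, so these rates do not carry over to the members.

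Members and lists were chosen with earlier results of these data known. Named are, per experiment, the 8 largest called decreases and increases, the 5 highest and 3 lowest per kilobase, DAP3 and the MRPS18 homologs. Also named are genes called in both (6 per direction pattern), the 6 smallest interaction p-values and at most 3 called genes of each other list. NRF1, GABPA and YY1 were added for their motifs. Added after values were seen were Mrpl16, Mrps36, Mrpl38, Mrps6, Mrps11, MRPS23 in both experiments and the progenitor markers. The further genes listed with the mitoribosome and the head-to-head neighbours were also added then. Same-numbered replicates showed no steady shared deviation (correlations 0.316, -0.177 and 0.0131 in mouse, and between -0.0138 and -0.000862 in human), and libraries were not paired in the main fits. With 3 libraries a group and the GC difference across mouse genotypes, this check cannot exclude pairing. Alternatives were DESeq2 1.42.0, other scalings and filters, length and GC offsets, a replicate block and leaving out each library.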

Additional observations from a re-analysis of the deposited data

Results flagged for a closer look

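For 8 members the fold change in mouse differed from that in human by the interaction test (edgeR, adjusted over 10318 genes). They were named by the rule in the processing notes. It takes the smallest interaction p-values and calls in opposite directions, so their being called largely follows from that choice. Over all genes tested in both, 56.2% were called, a larger share than of the members, as given above. Each value is the mouse minus the human log2 fold change. It was 1.45 for MRPL50, 0.54 for MRPS30 and 0.29 for MRPL42, called lower in human in each; the mouse log2 fold changes, -0.04, 0.07 and -0.10, were not called without the GC offset. It was -0.71 for MRPL10 and -0.36 for MRPL45, which were called higher in human and not called in mouse without the GC offset. It was -0.65 for MRPL28, -0.43 for MRPL40 and -0.47 for MRPS25, which were called lower in mouse and higher in human. Human MRPL28 was at 49.0, 49.5 and 48.3 CPM in shNC and 55.2, 52.4 and 51.7 in shDDX21 (0.12 ± 0.05, adjusted p = 0.029). Human MRPL40 was at 18.6, 21.4 and 18.2 and then 22.2, 23.1 and 21.2 (0.20 ± 0.08, adjusted p = 0.024), and the mouse gene changed by -0.24 ± 0.06. With the exon-length offset human MRPL40 was at 0.07 and not called. Under 21 alternatives each of the 8 differences kept its direction and stayed called, with adjusted p up to 0.034 for MRPL28 and up to 1.68e-05 for MRPL50.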

How the results depend on the processing

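Leaving out 1 library at a time gave 4 to 28 members called in mouse (all lower except 1 of the 28), 34 to 37 in human and 24 to 40 by the interaction. Over all genes the same fits called 3717 to 5671, 9820 to 10079 and 5346 to 6261. The median log2 fold change of members ran from -0.16 to -0.10 in mouse and from -0.091 to -0.059 in human. The mouse count was 37 with the GC offset, 36 with GC and gene-length offsets and 37 with a replicate block and GC offset, all chosen after seeing the data. The GC offset called 7131 of all genes, and GC and gene-length offsets 7172. With the GC offset and 1 library left out 27 to 36 members were called, among them 35 without WT replicate 3 (medians -0.18 to -0.14). Those fits called 5945 to 6913 of all genes. Scaled to total counts, the medians were -0.077 in mouse and -0.123 in human, and with upper-quartile factors -0.024 in human. A replicate block alone left 25 mouse and 41 human members called and 34 by the interaction. Counts over all genes are not given here for the replicate blocks. DESeq2 called 31 human members and 8931 of all human genes. Of single genes, Dap3 in mouse turned to 0.0064 with total counts, Mrps18a to 0.033 and 0.026 with the GC offset and without WT replicate 3 or cKO replicate 1, and human MRPS18A to 0.026 with upper-quartile factors; none was called. Refits of the 14 named genes called in mouse lost 64 of 336 calls, and those of the 26 called in human 44 of 390, none changing direction. The causes were not tested. Simulated 1.5-fold changes were recovered in 49 of 100 mouse genes. The simulation changed far fewer genes than were called in the data and held no GC difference, so it does not give the rate missed among members. Log2 fold changes as small as 0.141 in size were called in mouse members.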
